A study of Homo sapiens with 24 samples.

Results

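The genes described here are SP100, SP110, SP140, SP140L and PML, which encode the SP100 family of nuclear body proteins and the scaffold of those bodies. They were chosen by name, as 5 of the 26485 rows of the gene count table, and all 5 were found. The 24 RNA libraries, in 8 groups of 3, came from SH-SY5Y, a widely used human neuroblastoma cell line. At 24 h the groups were TEPA with IFN, dextran-catechin (DC) with IFN, IFN alone, TEPA alone, DC alone and an untreated control. At 4 h they were copper chloride and an untreated control. TEPA, a polyamine copper chelator, and DC are both called chelators here, and IFN is interferon gamma. All groups are this 1 cell line, no genetic change is labelled, the labels give no doses, and nothing in them tells if libraries within a group are separate cultures. The p-values therefore measure only the spread between these libraries. In bulk RNA, fewer cells with a transcript and less of it per cell cannot be told apart.

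PML nuclear bodies are small spherical structures of the cell nucleus. PML, a RING-finger protein of the tripartite motif family, builds their shell and is modified by the ubiquitin-like protein SUMO. SP100 is a permanent resident of the bodies and, like PML, restrains incoming viral genomes. SP110 and SP140 share with SP100 an amino-terminal assembly domain and a DNA-binding SAND domain, and both are best known from white blood cells. SP140L is a close relative of SP140. The genes of the family are classical interferon targets. Interferon gamma signals through the kinases JAK1 and JAK2 and induces IRF1, a transcription factor that binds repeats of GAAA.

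The 4 family genes lie side by side on chromosome 2 (GRCh38, GENCODE 29): SP110 at chr2:230167293-230225729 on the minus strand, SP140 at chr2:230203110-230313215, SP140L at chr2:230327184-230403732 and SP100 at chr2:230415942-230544090 on the plus strand. PML is at chr15:73994673-74047812 on the plus strand. The RefSeq promoter table (GRCh38.p14) held 6 windows, each of 250 bases before and 50 after a start site, for 4 of the 5 genes. PML had none. Of these windows 3 are shown because the family genes moved together with IFN. Capitals mark, on either strand and with overlapping matches merged, letters of the type that interferon regulatory factors bind: AANNGAAA, or GGAA and GAAA with any 2 bases between. These motifs were chosen after the windows had been seen.
SP100, chr2:230415951-230416250, plus strand: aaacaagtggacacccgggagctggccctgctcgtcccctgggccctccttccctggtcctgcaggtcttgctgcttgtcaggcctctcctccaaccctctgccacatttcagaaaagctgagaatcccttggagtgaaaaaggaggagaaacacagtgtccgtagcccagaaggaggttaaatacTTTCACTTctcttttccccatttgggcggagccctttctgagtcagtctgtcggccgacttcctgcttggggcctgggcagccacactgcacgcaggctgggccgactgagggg
SP140L, chr2:230326943-230327242, plus strand: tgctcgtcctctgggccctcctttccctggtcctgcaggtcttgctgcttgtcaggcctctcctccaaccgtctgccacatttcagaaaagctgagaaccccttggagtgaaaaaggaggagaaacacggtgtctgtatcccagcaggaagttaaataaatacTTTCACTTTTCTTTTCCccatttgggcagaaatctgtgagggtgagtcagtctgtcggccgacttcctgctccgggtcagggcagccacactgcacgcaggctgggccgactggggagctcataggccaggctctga
SP110, chr2:230225587-230225886, minus strand: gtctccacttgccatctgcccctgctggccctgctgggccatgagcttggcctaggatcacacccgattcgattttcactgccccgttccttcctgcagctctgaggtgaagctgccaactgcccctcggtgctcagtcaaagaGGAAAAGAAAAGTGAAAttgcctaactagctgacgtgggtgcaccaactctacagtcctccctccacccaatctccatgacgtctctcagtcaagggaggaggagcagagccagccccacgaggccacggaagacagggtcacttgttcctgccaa

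The windows of SP100 and SP140L were 92.3% identical over 272 aligned columns. The longest run shared by the first SP110 window and the SP140L window was a stretch of 17 bases. Its exact copies in those windows were thus fixed by the choice. Each of the 4 family genes had, in at least 1 window, a copy of this stretch with at most 1 difference. The copies are given on their own strand, and capitals mark the differences from the copies of SP110 and SP140L.
SP110, first window: ggaaaagaaaagtgaaa
SP140L: ggaaaagaaaagtgaaa
SP100: ggaaaagaGaagtgaaa
SP110, second window: Agaaaagaaaagtgaaa
The SP100 copy carried A9G and the copy in the second SP110 window carried G1A, with positions counted from 1 at the 5′ end of the stretch. The exact stretch was in 3 of 35116 RefSeq windows, those of SP110, SP140 and SP140L, and the SP110 and SP140 windows hold the same genomic copy on opposite strands. With up to 1 mismatch it was in 8 windows (0.0228%), which belong to the 4 family genes, RELA, ETV7-AS1 and LOC102723834. Because the stretch was taken from the family's own windows, these counts show how rare the letters are and test no link to the family. AANNGAAA was in 22.8% of all windows, and GGAA and GAAA with any 2 bases between in 2.82%. A pair of GAAA with any 2 bases between, the classical interferon-stimulated letters, was in none of the 6 windows and in 3.57% of all. A match is a description of letters, and binding was not measured here.

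Library totals ran from 24569980 to 35372442 counts, with 16168 to 17030 genes detected. The line's adrenergic markers summed to 1490 to 1980 CPM (the read count scaled by the TMM-adjusted library total) in every library, although TH, the enzyme that starts catecholamine synthesis, had 5 counts in all. Leukocyte markers summed to 0.153 to 0.862 CPM, with CD3E, MS4A1, SPI1 and CD2 at 0, and epithelial markers to 0.254 to 0.898 CPM. A fibroblast and endothelial list summed to 204 to 366 CPM through LUM, DCN and PDGFRB, and was 253 to 366 CPM with IFN against 204 to 313 CPM without it at 24 h. Its endothelial genes PECAM1, CDH5 and VWF did not exceed 0.186 CPM. The part of that list in the results was not tested. Added copper raised 6 of 6 tested genes of a copper response list (metallothioneins, HMOX1 and SLC30A1), where 5.85% of all genes were called. TEPA lowered 2 of the 6, where 1.06% of all genes were called. Some of the 6 were near the floor at 24 h, such as MT1F at 0.00884 CPM with TEPA and 0.149 CPM in control. Libraries also differed in how the levels of their genes followed base composition. Each library's GC difference sets its GC-rich genes (fraction over 0.6) against its GC-poor genes (below 0.4) by their median log2 levels, relative to all libraries, and ran from -1.32 to 1.38. Each fit was repeated with this trend removed.

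IFN for 24 h raised all 4 genes that had enough counts for the test. PML, SP100, SP110 and SP140L passed the test in each of the 3 comparisons with IFN on one side. SP100 had enough counts only through the libraries with IFN, so its place among the 4 was secured by the groups where it is high. The fit was edgeR's quasi-likelihood test over all 24 libraries with Benjamini-Hochberg adjustment over 14654 genes, and a gene was called at an adjusted p under 0.05. In IFN against control 4 of 4 were called, all higher, where 18.8% of all genes were called in either direction. In TEPA with IFN against TEPA 4 of 4 were called (14.2% of all genes), and in DC with IFN against DC 4 of 4 (9.82% of all genes), again all higher. The IFN-treated and untreated libraries did not overlap for any of the 4 in any of these comparisons. The share of all genes without overlap was not counted, here or for the comparisons below, so overlap only describes the named genes. IFN against control and the comparisons of a chelator with IFN against IFN share the IFN libraries.

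**Figure D1:**
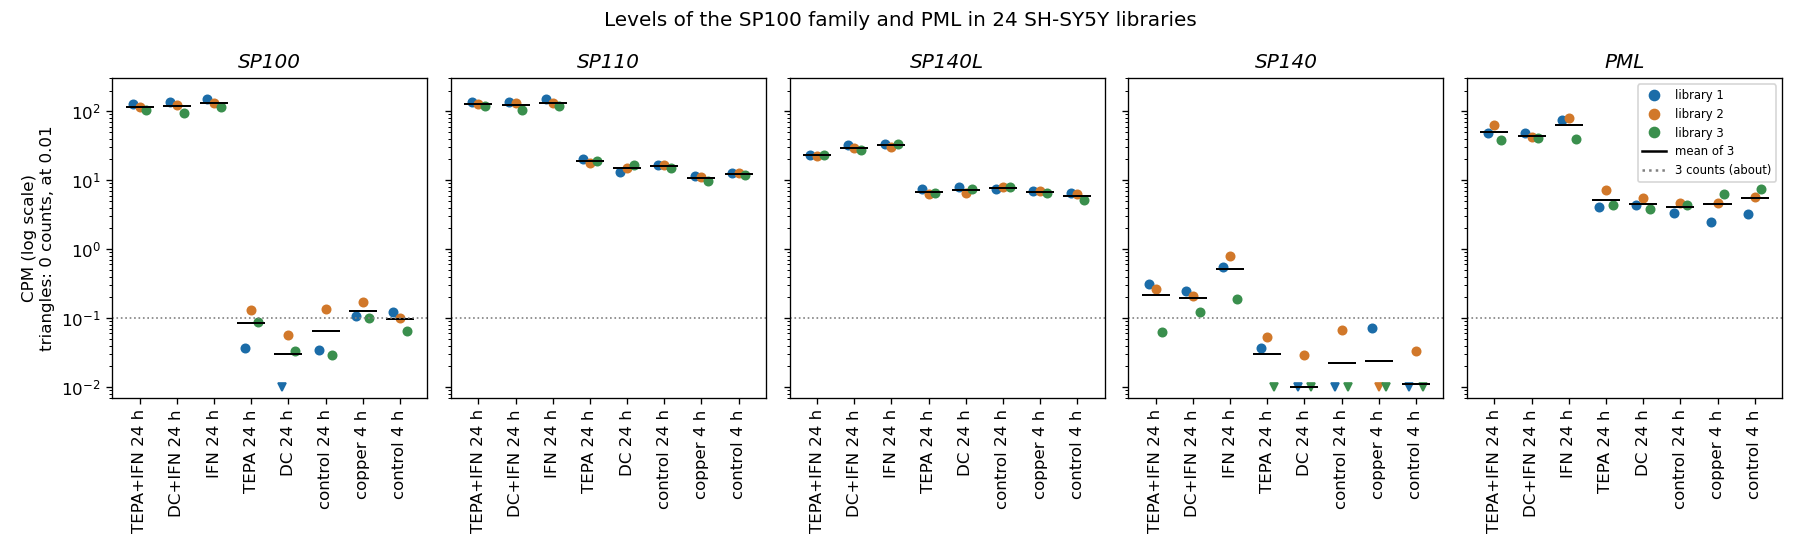
Level of each gene in every library, in CPM on a log axis, with 3 libraries a group, a bar at the group mean and a dotted line at about the level of 3 counts. SP100 lay between 94.4 and 149 CPM in the 9 libraries with IFN and at or under 0.173 CPM in the other 15.

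PML, the scaffold, had 74.8, 79.0 and 39.0 CPM in the IFN libraries, against 3.40, 4.67 and 4.34 CPM in the control libraries. The lowest IFN library was far above the highest control library. The log2 fold change was 3.96 (SE 0.33, edgeR adjusted p = 1.17e-07). With TEPA and IFN it had 48.8, 63.7 and 37.9 CPM, against 4.15, 7.14 and 4.41 CPM with TEPA. The log2 fold change was 3.25 (SE 0.33, edgeR adjusted p = 1.3e-06). With DC and IFN it had 48.5, 42.8 and 41.6 CPM, against 4.40, 5.56 and 3.77 CPM with DC. There the log2 fold change was 3.27 (SE 0.33, edgeR adjusted p = 1.37e-06). IFN library 3 stood apart from the other IFN libraries in PML.

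SP100, the other core resident, was close to undetected without IFN. It had 4248, 3652 and 3637 counts in the IFN libraries, against 1, 4 and 1 in the control libraries. These are 132 ± 16.6 CPM with IFN and 0.0657 ± 0.0594 CPM in control (SD, n = 3 each), a ratio of 2050 with a 95% counting interval of 943 to 5590. The fitted log2 fold change was 10.92 (SE 0.53, edgeR adjusted p = 9.14e-16), and it was 11.85 without control library 2, which held 4 of the 6 control counts. The size of the fitted value rests on those few control reads. With TEPA and IFN it had 3648, 3517 and 3337 counts, against 1, 5 and 3 with TEPA, a ratio of 1270 (671 to 2790). With DC and IFN it had 3284, 3523 and 3086 counts, against 0, 2 and 1 with DC, a ratio of 3570 (1220 to 17300). The fitted log2 fold changes were 10.26 (SE 0.45) with TEPA and 11.66 (SE 0.74) with DC, and the value with DC was 12.42 without DC library 2. The intervals of ratios cover counting error only, and the intervals of the 3 ratios overlap.

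SP110, a family member with a bromodomain that is needed for normal immunity, had 150, 132 and 118 CPM in the IFN libraries, against 16.7, 16.6 and 14.9 CPM in the control libraries. Its log2 fold change was 3.05 (SE 0.11, edgeR adjusted p = 1.16e-13). With TEPA and IFN it had 137, 127 and 118 CPM, against 20.3, 18.0 and 19.3 CPM with TEPA, a log2 fold change of 2.73 (SE 0.11). With DC and IFN it had 137, 130 and 104 CPM, against 13.2, 15.1 and 16.4 CPM with DC, a log2 fold change of 3.05 (SE 0.11). SP110 reached with IFN the level of SP100 in CPM, although it started from a well-measured level. The annotated exons of SP110 overlap those of the antisense gene AC009950.1 over 1262 bases (18.4%), and of SP140 over 170 bases (2.48%). The strand setting of the counting is not given in the sources used here, so these reads cannot be told apart.

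SP140L had 33.6, 29.9 and 33.1 CPM in the IFN libraries, against 7.40, 8.02 and 7.90 CPM in the control libraries. The log2 fold change of 2.05 (SE 0.11, edgeR adjusted p = 2.27e-11) was the smallest of the 4. With TEPA and IFN it had 23.3, 22.1 and 23.5 CPM, against 7.50, 6.34 and 6.58 CPM with TEPA, a log2 fold change of 1.75 (SE 0.11). With DC and IFN it had 32.3, 29.1 and 27.4 CPM, against 7.93, 6.49 and 7.56 CPM with DC, a log2 fold change of 2.02 (SE 0.11). The SD of SP140L was at most 2.51 CPM in the groups with IFN. Of the stretches of 100 bases in its transcripts, 7.74% also occur in other transcripts of the family, so a small share of its reads is uncertain.

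SP140, best known from lymphocytes, stayed at the edge of detection and did not pass the filter on low counts over the 24 libraries. It had 16, 22 and 6 counts in the IFN libraries, against 0, 2 and 0 in the control libraries, a ratio of 23.5 (95% counting interval 6.12 to 200). With TEPA and IFN it had 9, 8 and 2 counts, against 1, 2 and 0 with TEPA, a ratio of 6.91 (2.04 to 36.5). With DC and IFN it had 6, 6 and 4 counts, against 0, 1 and 0 with DC, a ratio of 17.3 (2.69 to 725). In CPM the libraries with and without IFN did not overlap within any of these comparisons. With TEPA, however, the separation was 0.0623 CPM against 0.0531 CPM, both from 2 counts. In a fit without the filter, the log2 fold change of IFN against control was 4.32 (SE 1.31, edgeR adjusted p = 0.00396). The comparisons with TEPA (adjusted p = 0.105) and DC (adjusted p = 0.0718) did not pass in that edgeR fit. With a library left out, filter and call depended on which one. IFN against control passed without any 1 control library or IFN library 3 (edgeR adjusted p up to 0.0216). Without IFN library 1 or 2 SP140 failed the filter. TEPA with IFN against TEPA passed only without TEPA and IFN library 3 (edgeR adjusted p = 0.0408), and DC with IFN against DC never. The whole leukocyte list, including its genes at 0, summed to 0.210 to 0.431 CPM with IFN and 0.306 to 0.705 CPM in control. The source of the SP140 reads was not tested. Of the SP140 stretches of 100 bases, 8.76% also occur in SP140L or SP110, both of which had far more reads.

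**Figure D2:**
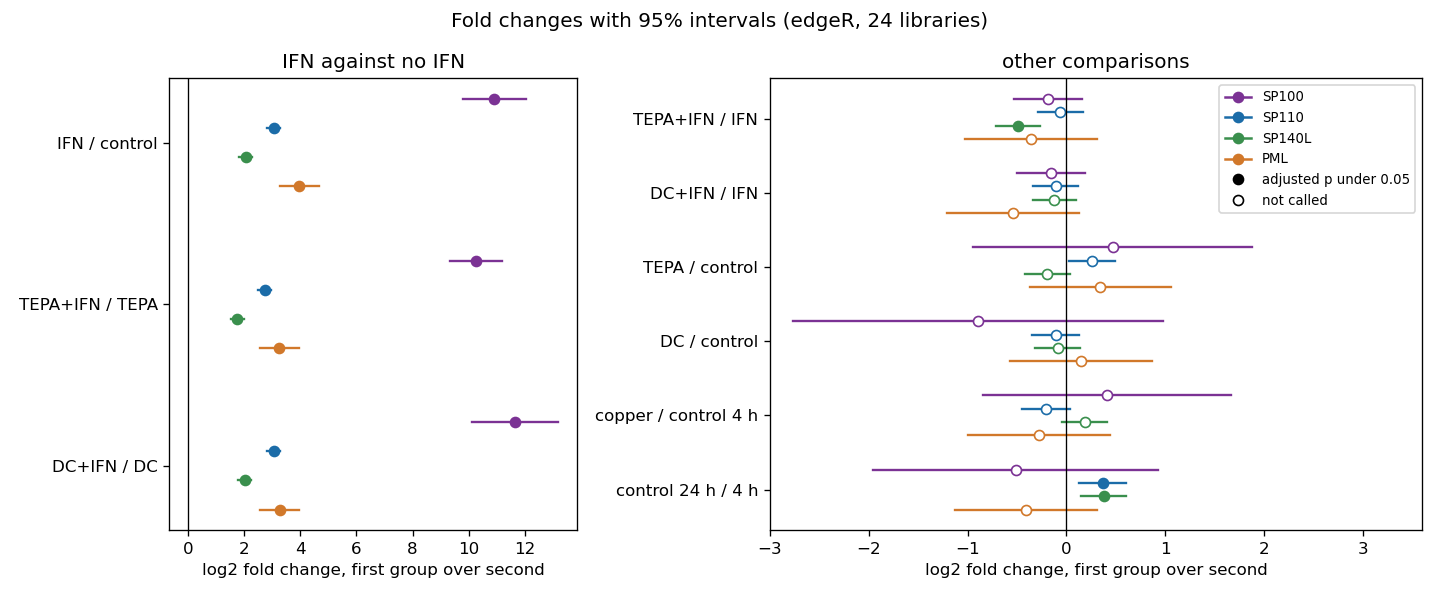
Log2 fold change of the 4 tested genes with 95% intervals from edgeR, the first named group over the second, filled where the adjusted p was under 0.05. The 12 values with IFN on one side lie between 1.75 and 11.66, and in the right panel SP140L in TEPA with IFN against IFN and SP110 and SP140L in the 24 h against the 4 h control are filled.

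With a chelator added to IFN, SP140L fell with TEPA and the other genes did not pass with either agent. Set against IFN alone, TEPA with IFN gave 1 call among the 4 tested genes (1.90% of all genes). SP140L had 23.3, 22.1 and 23.5 CPM with TEPA and IFN, against 33.6, 29.9 and 33.1 CPM with IFN. The highest library with TEPA and IFN, 23.5 CPM, was under the lowest IFN library, 29.9 CPM, so the groups did not overlap. The log2 fold change was -0.49 (SE 0.11, edgeR adjusted p = 0.0191). The call was lost with the 6 compared libraries fitted alone (edgeR adjusted p = 0.0607). It was also lost without IFN library 1 or 3 or TEPA and IFN library 1 or 2, with adjusted p up to 0.0726 in edgeR, and it held in 10 of 15 alternatives.

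The other genes did not pass in that comparison. SP100 had a log2 fold change of -0.19 (95% interval -0.53 to 0.15), SP110 of -0.06 (-0.29 to 0.17) and PML of -0.36 (-1.03 to 0.31). The interval was narrowest for SP110 and widest for PML. SP140 had 19 counts in the 3 libraries with TEPA and IFN and 44 in the 3 IFN libraries. The ratio was 0.417 with a counting interval of 0.230 to 0.729, and the libraries overlapped. In the fit without the filter its log2 fold change was -1.25 (SE 0.698, edgeR adjusted p = 0.694), so it did not pass.

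In DC with IFN against IFN 0 of 4 passed edgeR's test (0.0205% of all genes), 0 had an unadjusted p under 0.05, and limma-voom and DESeq2 called 0 too. The log2 fold changes were -0.15 for SP100 (95% interval -0.49 to 0.19), -0.11 for SP110 (-0.33 to 0.12), -0.12 for SP140L (-0.34 to 0.10) and -0.54 for PML (-1.21 to 0.13). All 4 had overlapping libraries. SP140 had 16 counts with DC and IFN and 44 with IFN, a ratio of 0.376 (0.198 to 0.679), again with overlap.

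Set directly against each other, TEPA with IFN and DC with IFN gave 0 of 4 calls (2.72% of all genes), and 1 gene, SP140L, had an unadjusted p under 0.05. SP140L had 23.3, 22.1 and 23.5 CPM with TEPA and IFN, against 32.3, 29.1 and 27.4 CPM with DC and IFN, and the libraries did not overlap. Its log2 fold change was -0.37 (95% interval -0.59 to -0.15, edgeR adjusted p = 0.0736). It passed with DESeq2 (adjusted p = 0.00392), with limma-voom (adjusted p = 0.028) and in edgeR with the GC trend removed (adjusted p = 0.0095). SP100 and SP110 overlapped in level, with 116 ± 11.7 and 128 ± 9.60 CPM with TEPA and IFN, against 119 ± 21.8 and 124 ± 17.9 CPM with DC and IFN (SD, n = 3 each). PML was at 50.1 ± 12.9 CPM with TEPA and IFN and at 44.3 ± 3.70 CPM with DC and IFN.

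**Figure D3:**
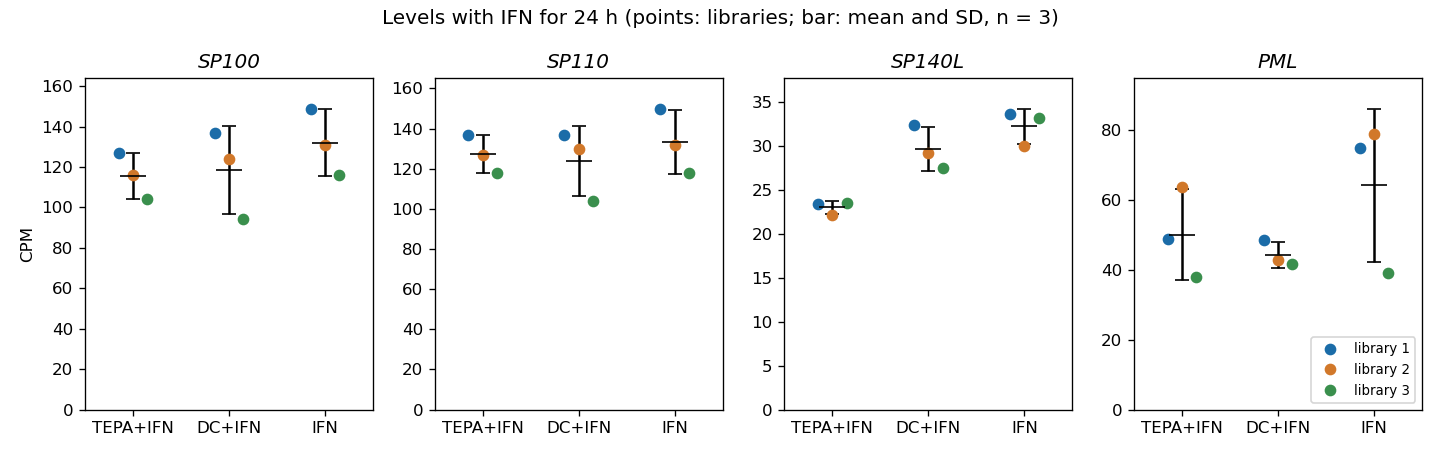
Levels in CPM of the 4 tested genes in the 9 libraries with IFN, with the mean and SD of 3 libraries a group. In the SP140L panel the TEPA and IFN libraries, at 22.1 to 23.5 CPM, lie apart from the DC and IFN libraries, at 27.4 to 32.3 CPM, and from the IFN libraries, at 29.9 to 33.6 CPM.

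Whether a chelator changed the response to IFN was tested with interaction contrasts. With TEPA 0 of 4 genes and 0% of all genes passed in edgeR, 205 genes had an unadjusted p under 0.05, and limma-voom and DESeq2 called 0 genes. Over all genes edgeR called 6 with the GC trend removed and 13 with the replicate block as well. SP110 had a log2 interaction of -0.32 (95% interval -0.65 to 0.01) and SP140L of -0.30 (-0.61 to 0.02). PML had -0.70 (-1.68 to 0.28) and SP100 -0.65 (-2.11 to 0.80). All 4 values stayed negative in 21 alternatives each, and 0 were called. With the GC trend removed the unadjusted edgeR p was 0.026 for SP110, 0.0496 for SP140L, 0.0418 for PML and 0.398 for SP100. With DC 0 of 4 genes and 0% of all genes passed in edgeR, 142 genes had an unadjusted p under 0.05, limma-voom called 0 genes and DESeq2 2. The log2 interaction was 0.00 for SP110 (-0.33 to 0.33), -0.03 for SP140L (-0.35 to 0.28), -0.69 for PML (-1.67 to 0.30) and 0.74 for SP100 (-1.16 to 2.64). The intervals of SP110 and SP140L are narrow and those of PML and SP100 wide.

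Without IFN the chelators moved none of the 4 tested genes past the threshold. SP100 was among the 4 only through the libraries with IFN. Its few counts without IFN could not show a modest change, so its missing calls say little. This holds for the copper and control comparisons below as well. In TEPA against control 0 of 4 passed (1.06% of all genes), in edgeR, limma-voom and DESeq2, and SP110 alone had an unadjusted p under 0.05. SP110 was at 19.2 ± 1.13 CPM with TEPA and 16.1 ± 1.02 CPM in control (SD, n = 3 each), without overlap. Its log2 fold change was 0.26 (95% interval 0.02 to 0.49, edgeR adjusted p = 0.433). SP140L was at 6.81 ± 0.611 CPM with TEPA and 7.78 ± 0.330 CPM in control, and PML at 5.23 ± 1.65 CPM with TEPA and 4.14 ± 0.661 CPM in control. Their log2 fold changes were -0.19 (-0.42 to 0.03) and 0.34 (-0.37 to 1.06). SP100 had 9 counts with TEPA and 6 in control.

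In DC against control 0 of 4 passed (0.0136% of all genes), in edgeR, limma-voom and DESeq2, and 0 had an unadjusted p under 0.05. SP110 was at 14.9 ± 1.58 CPM with DC and 16.1 ± 1.02 CPM in control, a log2 fold change of -0.11 (-0.34 to 0.13). SP140L was at 7.33 ± 0.750 CPM with DC and 7.78 ± 0.330 CPM in control, and PML at 4.58 ± 0.912 CPM with DC and 4.14 ± 0.661 CPM in control. Their log2 fold changes were -0.09 (-0.31 to 0.14) and 0.15 (-0.57 to 0.87). SP100 had 3 counts with DC and 6 in control, a ratio of 0.510 (counting interval 0.0825 to 2.39), so a change of SP100 was not detectable at this depth.

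TEPA against DC gave 0 of 4 calls (1.26% of all genes), in edgeR, limma-voom and DESeq2, with SP110 alone at an unadjusted p under 0.05. SP110 had 20.3, 18.0 and 19.3 CPM with TEPA, against 13.2, 15.1 and 16.4 CPM with DC, and the groups did not overlap. The log2 fold change was 0.37 (95% interval 0.13 to 0.60, edgeR adjusted p = 0.139). It passed in edgeR with the GC trend removed (adjusted p = 0.0465), and with the replicate number as a block as well (adjusted p = 0.0223).

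With copper for 4 h 0 of the 4 tested genes passed against the 4 h control (5.85% of all genes), in edgeR, limma-voom and DESeq2, and 0 had an unadjusted p under 0.05. SP110 had 11.5, 11.1 and 9.79 CPM with copper, against 12.9, 12.6 and 11.8 CPM in the 4 h control, a log2 fold change of -0.21 (95% interval -0.45 to 0.03). SP140L had 6.89, 7 and 6.49 CPM with copper, against 6.45, 6.36 and 5.15 CPM in the 4 h control, a log2 fold change of 0.18 (-0.05 to 0.41). Neither gene overlapped between copper and control, with SP110 lower and SP140L higher, but the interval of each difference held 0. How many of all genes separate in this way was not counted. PML had 2.47, 4.75 and 6.33 CPM with copper, against 3.28, 5.73 and 7.35 CPM in the 4 h control, a log2 fold change of -0.28 (-0.99 to 0.44). SP100 had 11 counts with copper and 8 in the 4 h control, a ratio of 1.35 (counting interval 0.494 to 3.86). SP140 had 2 counts with copper and 1 in the 4 h control.

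The untreated controls of 24 h and 4 h differ in time and perhaps in other handling, which cannot be told apart. In the 24 h against the 4 h control 2 of 4 genes were called (9.69% of all genes), and both were higher. SP110 was at 16.1 ± 1.02 CPM at 24 h and 12.4 ± 0.566 CPM at 4 h, and SP140L at 7.78 ± 0.330 CPM at 24 h and 5.98 ± 0.727 CPM at 4 h (SD, n = 3 each), both without overlap. The log2 fold changes were 0.37 for SP110 (SE 0.11, edgeR adjusted p = 0.0476) and 0.38 for SP140L (SE 0.11, edgeR adjusted p = 0.0352). SP110 kept its call in 3 of 15 alternatives and SP140L in 6 of 15, and each lost it without any 1 of 5 of the 6 libraries, the exception being 4 h control library 1. Without the others the adjusted p reached 0.218 for SP110 and 0.229 for SP140L in edgeR. PML (-0.41, 95% interval -1.12 to 0.31) and SP100 (-0.51, -1.96 to 0.93) did not pass.

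The genes differ in level per length. With IFN, the CPM per kilobase of annotated exon was 19.4 ± 2.30 for SP110, 10.4 ± 1.31 for SP100, 5.70 ± 0.363 for SP140L, 5.08 ± 1.73 for PML and 0.0920 ± 0.0542 for SP140 (SD, n = 3). SP140L and PML, neighbours in that order, do not differ beyond their spread, and they change places with the longest transcript as the length (10.5 for SP140L and 11.9 for PML). In control the order was SP110 at 2.34 ± 0.149, SP140L at 1.38 ± 0.0584, PML at 0.327 ± 0.0522, and SP100 and SP140 at 0.00521 and 0.00401, which do not differ beyond their spread. Of the summed per-length level of the 5 genes, SP100 made up 25.7 ± 0.404% with IFN and 0.126 ± 0.109% in control. SP140L made up 14.2 ± 2.11% with IFN and 34.0 ± 1.64% in control, and SP110 made up 47.7 ± 1.06% with IFN and 57.7 ± 2.71% in control. SP100 stood beside SP140 in control and second to SP110 with IFN. Its shares were 25.6 ± 0.723% with TEPA and IFN and 25.8 ± 1.27% with DC and IFN. All these shares depend on the length used. With the longest transcript as the length, the shares with IFN were 32.2% for SP100, 46.4% for SP110 and 10.1% for SP140L. In control they were then 0.18%, 63.9% and 27.5%.

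In the 5 groups without IFN, and also in IFN and in TEPA with IFN, the PML level was higher in libraries with a higher GC difference. In DC with IFN the order was the reverse, with 48.5, 42.8 and 41.6 CPM at GC differences of -0.198, -0.174 and 0.374. PML has a transcript GC fraction of 0.582, higher than 81.7% of tested genes, against 0.425 for SP100, 0.441 for SP110 and 0.492 for SP140L. The GC difference averaged 0.456 ± 0.527 in the IFN libraries and -0.705 ± 0.308 in the control libraries (SD, n = 3 each). It was -0.125 in IFN library 3, which had the lowest PML level of the IFN group. With the trend removed PML was at 52.5 ± 10.5 CPM with IFN and 5.20 ± 0.516 CPM in control, and the log2 fold change was 3.33 (edgeR adjusted p = 9.74e-13). The rise thus kept its call and became smaller by more than 1.5 times on the linear scale.

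The SD of PML was smaller with the trend removed in every group except DC with IFN. Among groups without IFN the SD with the trend removed was 0.0974 CPM with TEPA (1.65 before), 0.0852 CPM with DC (0.912 before), 0.516 CPM in the 24 h control (0.661 before), 0.535 CPM with copper (1.94 before) and 0.290 CPM in the 4 h control (2.05 before). With IFN it was 5.67 CPM for TEPA with IFN (12.9 before), 7.85 CPM for DC with IFN (3.70 before) and 10.5 CPM for IFN (22.0 before). On that scale PML had 3.05, 3.70 and 4.11 CPM with copper, against 5.13, 4.62 and 4.63 CPM in the 4 h control, without overlap. The log2 fold change of copper against the 4 h control was then -0.38 (edgeR adjusted p = 0.122), and no alternative brought it under an adjusted p of 0.109.

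**Figure D4:**
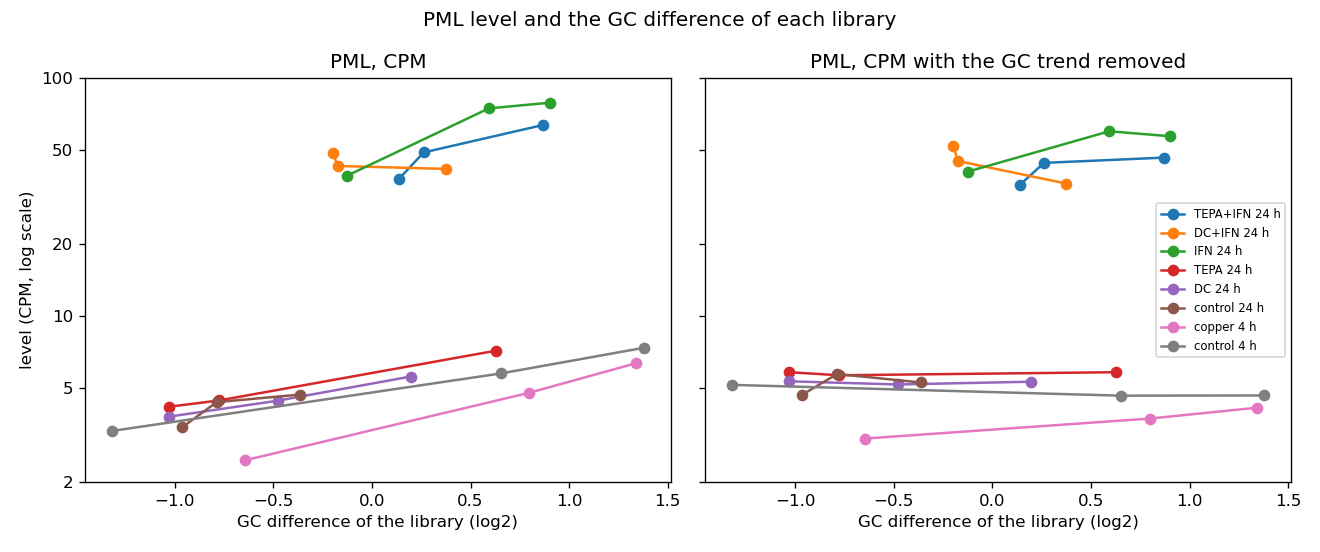
PML level of each library on a log axis against the library's GC difference, as measured on the left and with the GC trend removed on the right, with the 3 libraries of a group joined. The lines of the 5 groups without IFN, of IFN and of TEPA with IFN slope upward on the left. On the right the TEPA libraries lie between 5.63 and 5.80 CPM and the copper libraries between 3.05 and 4.11 CPM. The 24 h control libraries lie there between 4.67 and 5.70 CPM.

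Across libraries the genes were close to other interferon-induced transcripts. Over the 24 libraries the Pearson correlation of log2 CPM was highest between SP100 and TAP1, the peptide transporter of antigen presentation, PLSCR1 and IFI44L (r = 0.997 each). SP110 was closest to SAMHD1, an antiviral hydrolase of nucleotides (r = 0.998), and to TRIM25 and DTX3L (r = 0.997 each). SP140L was closest to SAMD9 and SAMD9L (r = 0.992 each). PML was closest to TAPBP, the chaperone of antigen loading (r = 0.996), GSTK1 (r = 0.995) and HELZ2 (r = 0.992). The points share their libraries, and most of each correlation is the gap between 9 libraries with and 15 without IFN.

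Over the 15 libraries without IFN other genes came closest. For PML they were TRIM65 (r = 0.967), TAPBP and NFRKB (r = 0.959 each), so TAPBP stood in both lists. For SP110 they were POLH (r = 0.969), RAPGEF4 (r = 0.960) and PMS2 (r = 0.959), and for SP140L ZNF365 (r = 0.908), GCOM1 (r = 0.882) and BRD8 (r = 0.843). SP100, at 0 to 5 counts in those libraries, reached 0.816 with CXCL12. Within the 9 libraries with IFN, SP100 and SP110 moved together (r = 0.96), SP110 and SP140L little (r = 0.25), and SP140L and PML least (r = 0.14). Depth and GC difference are shared by all genes of a library and were not removed from these values.

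Genes near the 5 were called about as often as genes in general, of which 18.8% were called in IFN against control. Within 500000 bases of the family 8 other genes were tested, of which 0 were called higher and 2 lower in IFN against control. DNER, a transmembrane ligand of Notch, was at 1.79 CPM with IFN and 4.02 CPM in control (log2 fold change -1.17, SE 0.24). SLC16A14, a transporter of the monocarboxylate family, was at 2.02 CPM with IFN and 3.70 CPM in control (log2 fold change -0.87, SE 0.22). Around PML 12 other genes were tested, of which 2 were called higher and 0 lower. CCDC33 was at 0.997 CPM with IFN and 0.431 CPM in control (log2 fold change 1.21, SE 0.36), and CD276, which encodes the checkpoint ligand B7-H3, at 59.5 CPM with IFN and 41.8 CPM in control (0.51, SE 0.16).

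**Figure D5:**
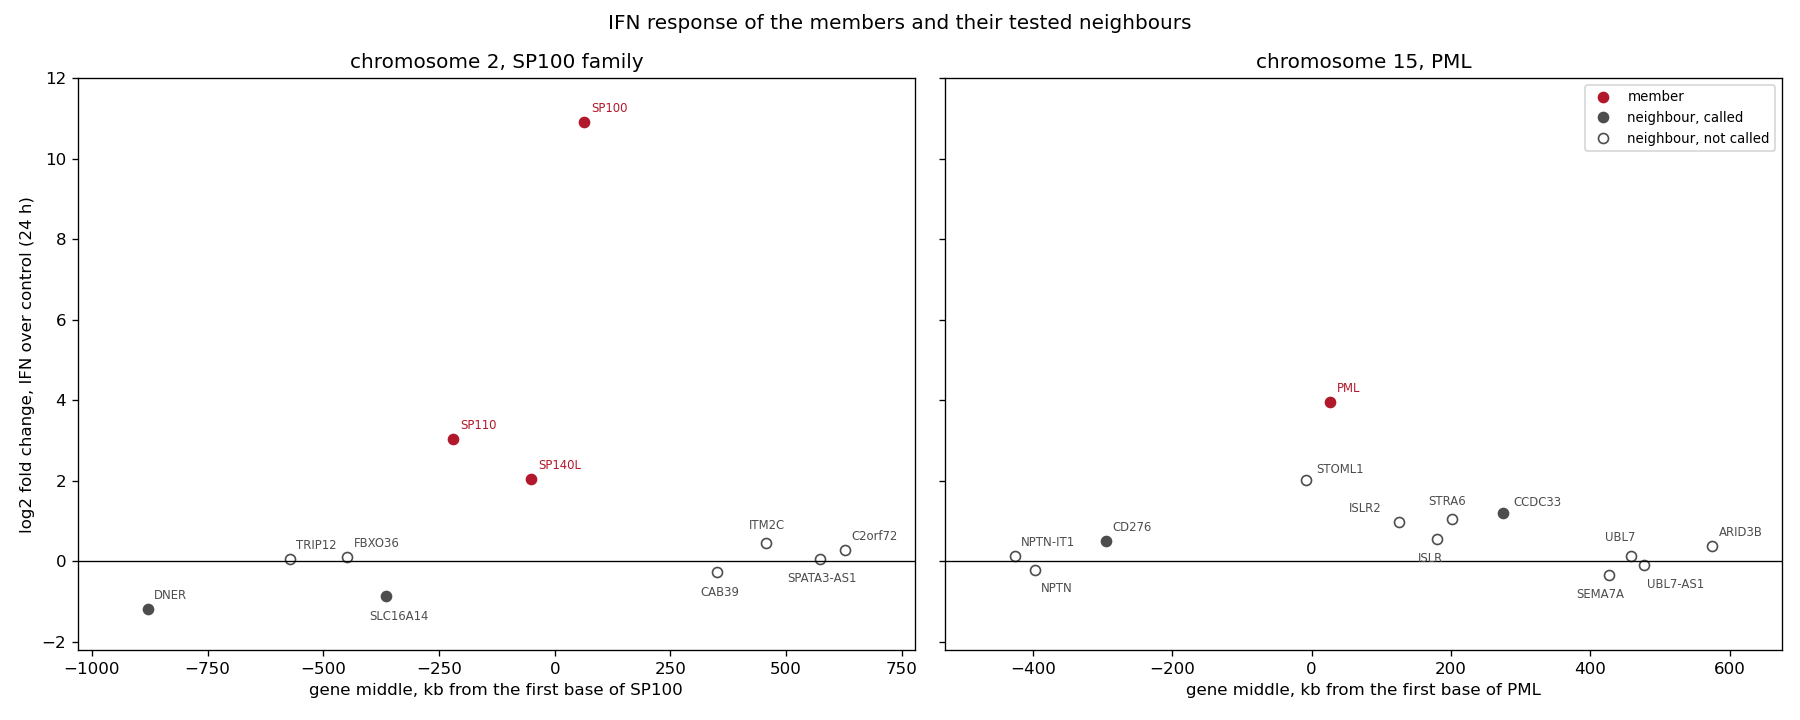
Log2 fold change of IFN over control for the tested genes within 500000 bases, against the distance in kb of the gene's middle from the first base of SP100 (left) or PML (right). SP100, SP110, SP140L and PML lie at 2.05 or higher, while the called neighbours are DNER, SLC16A14, CD276 and CCDC33, at -1.17 to 1.21.

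Genes whose proteins meet PML in the bodies were called in both directions with IFN. Of 28 tested partners 7 rose and 3 fell in IFN against control, where 18.8% of all genes were called, with a median log2 fold change of 0.09 beside 0.01 over all genes. ISG20, an exonuclease with known antiviral activity, rose most, with 3.28 CPM with IFN and 0.243 CPM in control (log2 fold change 3.72, SE 0.58). CABIN1 (0.90, SE 0.27) and HIRA (0.84, SE 0.24), parts of the complex that places histone H3.3, also rose, and the histone chaperone ASF1A fell by 0.52 on the log2 scale (SE 0.17). ISG20 rose as well in TEPA with IFN against TEPA (3.02, SE 0.59), where 6 partners rose and 1 fell (14.2% of all genes called), and in DC with IFN against DC (3.92, SE 0.70), where 3 rose and 0 fell (9.82% of all genes called). The GC differences of IFN and control stand above, and their part in these counts was not tested.

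The SUMO pathway, which modifies PML and SP100, had 0 of 20 tested members higher and 1 lower with IFN (18.8% of all genes called), at a median of -0.14. The one was SUMO3, at 108 CPM with IFN and 129 CPM in control (log2 fold change -0.25, SE 0.08). Of 13 tested relatives with a SAND domain or a PHD finger beside a bromodomain, 1 rose and 1 fell against the same share of all genes, at a median of 0.00. BAZ2A, a subunit of a chromatin remodelling complex of the nucleolus, was at 276 CPM with IFN and 140 CPM in control (0.98, SE 0.17), and SKI, a corepressor, at 47.4 CPM with IFN and 56.0 CPM in control (-0.24, SE 0.08).

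The IFN signalling list had 6 of 9 members higher and 0 lower (18.8% of all genes called), at a median of 3.59. Among its rises were IRF1 (log2 fold change 7.32, SE 0.27), SOCS1, the feedback inhibitor of the pathway (6.19, SE 0.99), and IRF9 (3.75, SE 0.16). In TEPA with IFN against IFN, 0 of the partners, SUMO genes or relatives passed, and of the signalling list 1 fell (1.90% of all genes called). That was STAT2, at 554 CPM with TEPA and IFN and 727 CPM with IFN (log2 fold change -0.39, SE 0.09), which was named after its value had been seen.

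Few genes of these lists passed without IFN. In TEPA against control none of the partners, SUMO genes, relatives or signalling genes was called by edgeR (1.06% of all genes called). The most abundant partners were CBX5, the heterochromatin protein HP1 alpha, at 1300 CPM with TEPA and 1390 CPM in control, and H3F3B, which encodes histone H3.3, at 684 CPM with TEPA and 648 CPM in control. With copper against the 4 h control, where 5.85% of all genes were called, 1 of 28 partners rose, CREBBP, an acetyltransferase (log2 fold change 0.38, SE 0.09). Of the 20 SUMO genes 2 fell, SUMO2 (-0.52, SE 0.14) and SUMO3 (-0.31, SE 0.08), and 0 relatives and 0 signalling genes were called.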

How the data were processed

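The deposited table holds raw counts of reads for each gene symbol, as whole numbers deposited by the authors. The submitters' processing notes name STAR 2.5a, RSEM 1.2.31 and hg38. Per the labels' protocols, library construction used a stranded mRNA kit. Annotation release and strand setting are not given in the sources used here. From these counts, filterByExpr (minimum count 10) of edgeR 4.0.16 in R 4.3.3 left 14654 of 26485 genes. TMM factors and a quasi-likelihood fit with 1 mean per group over 24 libraries gave 13 contrasts. Library totals ran from 24569980 to 35372442 counts, and intervals of count ratios (95%) cover counting error only. All 24 per-library lists equalled the table, and 0 of 276 library pairs were identical. Symbols matched GENCODE 29 in 90.2% of cases, for places, lengths and GC.

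Members, lists and comparisons were chosen with earlier results of these data known. Named were the members, up to 4 called genes of each list by size of change with IFN, TEPA or copper (else the 2 most abundant), called neighbours, and the 3 genes closest to each member. Of the genes this rule names, 1 is not reported here. Alternatives were DESeq2 1.42.0, limma-voom (limma 3.58.1), RLE factors, no filter, the compared groups alone, the replicate number as a block, GC trend removed, and each library left out.

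Same-numbered libraries of 2 groups were taken as paired where all 3 correlations of their deviations exceeded 0.1, a rule on the data and not on the labels. It held for TEPA with IFN against TEPA (lowest r 0.23), TEPA against control (0.23), DC against control (0.15), TEPA against DC (0.12) and copper against the 4 h control (0.35).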

Additional observations from a re-analysis of the deposited data

How the results depend on the processing

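The 12 results for SP100, SP110, SP140L and PML with IFN on one side kept their direction and their call under all 15 alternatives each. At most 11 counts a group limit SP100 without IFN, and at most 44 limit SP140 in any group. SP100 could not be fitted with the compared groups alone in the 5 comparisons without IFN.

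The count of called genes was 1 in TEPA with IFN against IFN, and it was 0 with the compared groups alone and 0 to 1 with a library left out. With the groups alone and a replicate block it was 3 (SP140L, SP100 and PML, all lower), but the pairing rule was not met there, where 4 of 6 libraries correlated best with their own number. In TEPA with IFN against DC with IFN it was 0, and 1 with the GC trend removed (with the replicate block too), limma-voom or DESeq2, always SP140L. In TEPA against DC it was 0, and 1 (SP110) with the GC trend removed, with or without the block. In the 24 h against the 4 h control it was 2. It was 1 with RLE factors, 1 with the GC trend removed (also 1 with the block), 0 with no filter, 0 with the groups alone (also 0 with the block), 0 with limma-voom, and 0 to 2 with a library left out. The replicate block changed no other call of these genes in the comparisons taken as paired. The cause of these changes was not tested.

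Signs turned only where no call was made. In TEPA with IFN against DC with IFN, removing the GC trend gave log2 values of 0.034 for SP100 and -0.07 for PML (0.04 and -0.068 with the block). PML had 0.134 (0.132 with the block) in the 24 h against the 4 h control, and -0.001 in DC against control with the trend removed and the block. SP110 in the DC interaction was 0.02 with RLE factors, 0.007 with no filter, 0.002 with the groups alone and 0.018 with DESeq2. With a library left out, log2 values ran as follows. In DC with IFN against IFN, SP110 had -0.177 to 0.019, and in TEPA with IFN against IFN -0.137 to 0.032. In TEPA with IFN against DC with IFN, SP100 had -0.18 to 0.074, SP110 -0.078 to 0.117 and PML -0.037 to 0.336. In DC against control, SP100 had -1.659 to 0.068 and PML -0.024 to 0.297. PML had -0.11 to 0.39 in TEPA against DC and -0.616 to 0.015 with copper. In the DC interaction SP100 had -0.21 to 1.517, SP110 -0.084 to 0.111 and SP140L -0.102 to 0.029.

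Counts over all genes varied more. IFN against control gave 2761 calls, 4333 with the block, 4679 with the GC trend removed and 6703 with the groups alone. TEPA with IFN against TEPA gave 2076, 4209 with the trend removed and 1186 with the groups alone, and DC with IFN against DC 1439 and 3270 with the trend removed. TEPA with IFN against IFN gave 279, 583 with DESeq2 and 1834 with the trend removed, and TEPA with IFN against DC with IFN 398, 731 and 2014. With the groups alone the former gave 121 and the latter 713. TEPA against control gave 155, 374 with DESeq2 and 1237 with the trend removed, and TEPA against DC 185, 434 and 1403 (287 with the block). With the groups alone TEPA against control gave 0 and TEPA against DC 2. Copper gave 857, 2980 with the trend removed and 61 with the groups alone. The 24 h against the 4 h control gave 1420, 3779 with the trend removed and 1 with the groups alone. Without 4 h control library 1 it gave 7375.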

Other observations

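By their RefSeq start sites SP110 and SP140 lie head to head, while their GENCODE places overlap over 22620 bases on opposite strands. Their RefSeq promoter windows share 199 genomic bases on opposite strands, and both hold the same copy of the stretch of 17 bases described in the report. In the SP110 window it begins 106 bases before the start, and in the SP140 window it lies across the start site, from 10 bases before it. With IFN SP110 had 11668 counts over 3 libraries and SP140 had 44. Per kilobase of annotated exon, that is 19.4 ± 2.30 CPM for SP110 and 0.0920 ± 0.0542 CPM for SP140 (SD, n = 3). In control SP110 had 1500 counts and SP140 had 2. IFN against control gave a count ratio of 8.30 for SP110 (95% counting interval 7.87 to 8.77) and of 23.5 for SP140 (6.12 to 200), and a difference between these ratios was not tested.

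STOML1 is the neighbour that ends closest before the first base of PML. It was at 0.932 CPM with IFN and 0.223 CPM in control, 2.03 higher on the log2 scale (SE 0.87, edgeR adjusted p = 0.0919), so it did not pass. It was picked out after its value had been seen.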
